A study of Mus musculus and Homo sapiens with 28 samples.

Results

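The genes described here are those of the mouse MHC class II antigen presentation machinery together with Ciita, the gene of its master regulator. There are 10 of them: Ciita, the classical chain genes H2-Aa, H2-Ab1 and H2-Eb1, the invariant chain gene Cd74, the peptide exchange genes H2-DMa, H2-DMb1 and H2-DMb2, and their modulators H2-Oa and H2-Ob. They were chosen by name from the 46078 rows of a mouse expression table, in which Ensembl identifiers were matched to symbols. All 10 had a mean value high enough to enter the 15916 genes tested, with H2-Ob the closest to the minimum mean of 3 at 3.47 rlog.

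Bulk RNA was sequenced from tumours of Renca, a mouse renal carcinoma line that arose in BALB/c mice, injected under the skin of the back. The tumours came in 4 groups: 5 libraries labelled SETD2 KD (knockdown) and given VE822, 6 labelled SETD2 KD and untreated, 6 labelled WT and given VE822, and 7 labelled WT and untreated. VE822, an inhibitor of the DNA damage kinase ATR, was given by mouth at 60 mg/kg on 5 days per week once tumours could be felt. All tumours shared the cell line and the site, and the labels call the tissue kidney. The sources used here do not give the strain and age of the mice, the way SETD2 was knocked down or the number of knockdown clones. The labels do not say that each library is a separate animal, so the spread that p-values rest on is that between libraries, which may in part be technical.

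MHC class II molecules are pairs of an alpha and a beta chain that present peptides from the endosomes of a cell to CD4 T cells. Dendritic cells, B cells and macrophages carry them, and many other cells, tumour cells among them, can acquire them under interferon gamma. Their genes share promoter boxes bound by the RFX, CREB and NF-Y proteins, and CIITA switches them on by binding to these proteins and not to the DNA. On GRCm38 the 8 H2 genes lie together on chromosome 17, from the start of H2-Oa at 34092340 to the end of H2-Eb1 at 34316674.

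The windows below show the promoter boxes named above, and the part of the boxes in the values of these genes was not tested. RefSeq promoters (GRCm38.p6, 250 bases before to 50 after each start) were found for 7 of the 9 genes looked up, H2-Aa, H2-Eb1, H2-DMa, H2-DMb1, H2-DMb2, H2-Oa and H2-Ob. Cd74 was not looked up, and H2-Ab1 and Ciita had no entry. Capitals mark the core of the X box, searched as GNAAC, and of the Y box, searched as GATTGG. The windows run 5′ to 3′ on the strand of the gene.
H2-Aa: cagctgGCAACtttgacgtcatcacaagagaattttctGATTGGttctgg
H2-Eb1: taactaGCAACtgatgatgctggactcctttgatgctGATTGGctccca
H2-DMb1: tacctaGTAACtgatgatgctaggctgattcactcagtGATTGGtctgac
H2-DMb2: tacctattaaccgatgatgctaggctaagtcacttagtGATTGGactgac
H2-Oa: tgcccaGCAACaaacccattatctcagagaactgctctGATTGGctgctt
H2-Ob: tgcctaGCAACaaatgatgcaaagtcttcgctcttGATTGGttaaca

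These windows lie at chr17:34287861-34287910 (minus strand, H2-Aa), chr17:34305770-34305818 (plus strand, H2-Eb1) and chr17:34153091-34153140 (plus strand, H2-DMb1). Those of H2-DMb2, H2-Oa and H2-Ob lie on the plus strand at chr17:34145120-34145169, chr17:34092297-34092346 and chr17:34238812-34238858. GATTGG was found on either strand in the promoters of all 7 of these genes, against 16.1% of the 32851 promoters in the table. GNAAC followed on the same strand by GATTGG, with 15 to 40 bases between them, was found in 5 of the 7, against 1.45% of all promoters. H2-DMa and H2-DMb2 held GATTGG without a GNAAC at that distance. GNAAC alone is short, and 84.8% of all promoters held it, so a match describes letters and not a bound site. H2-Oa and H2-Ob, which had the smallest differences with VE822 of the 10 genes, held the same 2 boxes as H2-Aa, with 27 bases between them in H2-Oa, 24 in H2-Ob and 27 in H2-Aa.

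Expression values are regularised log2 values (rlog), so 1 unit is a doubling and the read depth behind them is unknown. Each library had between 12906 and 13381 genes with an rlog over 5. Setd2, the gene named by the knockdown label, did not differ between untreated tumours labelled SETD2 KD and WT, with 10.81 ± 0.07 (SD, n = 6) and 10.83 ± 0.07 rlog (SD, n = 7). The label is therefore not borne out at the RNA level, and the groups are named by their labels throughout. Setd2 was lower with VE822 under both labels, with differences of -1.09 in libraries labelled SETD2 KD and -0.80 in libraries labelled WT (log2; limma adjusted p 1.08e-07 and 1.19e-06). One treated library stood apart, SETD2 KD VE822 replicate 4, to which limma gave the lowest weight of the 24, 0.144.

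VE822 went with higher RNA of nearly the whole class II set under both labels. Of the 10 genes, 8 were called higher and 0 lower in SETD2 KD VE822 against SETD2 KD untreated tumours, where 10.6% of all genes tested were called higher and 11.6% lower. In WT VE822 against WT untreated tumours, 9 of 10 were called higher and 0 lower, where 17.2% of all genes were called higher and 17.5% lower. The median difference of the 10 genes was 1.13 and 0.88 (log2), beside a median over all genes of 0.01 in each comparison. Calls were made with limma at a Benjamini-Hochberg adjusted p of 0.05 over the 15916 genes. In bulk tumour RNA, more cells of a type and more RNA per cell cannot be told apart.

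**Figure D1:**
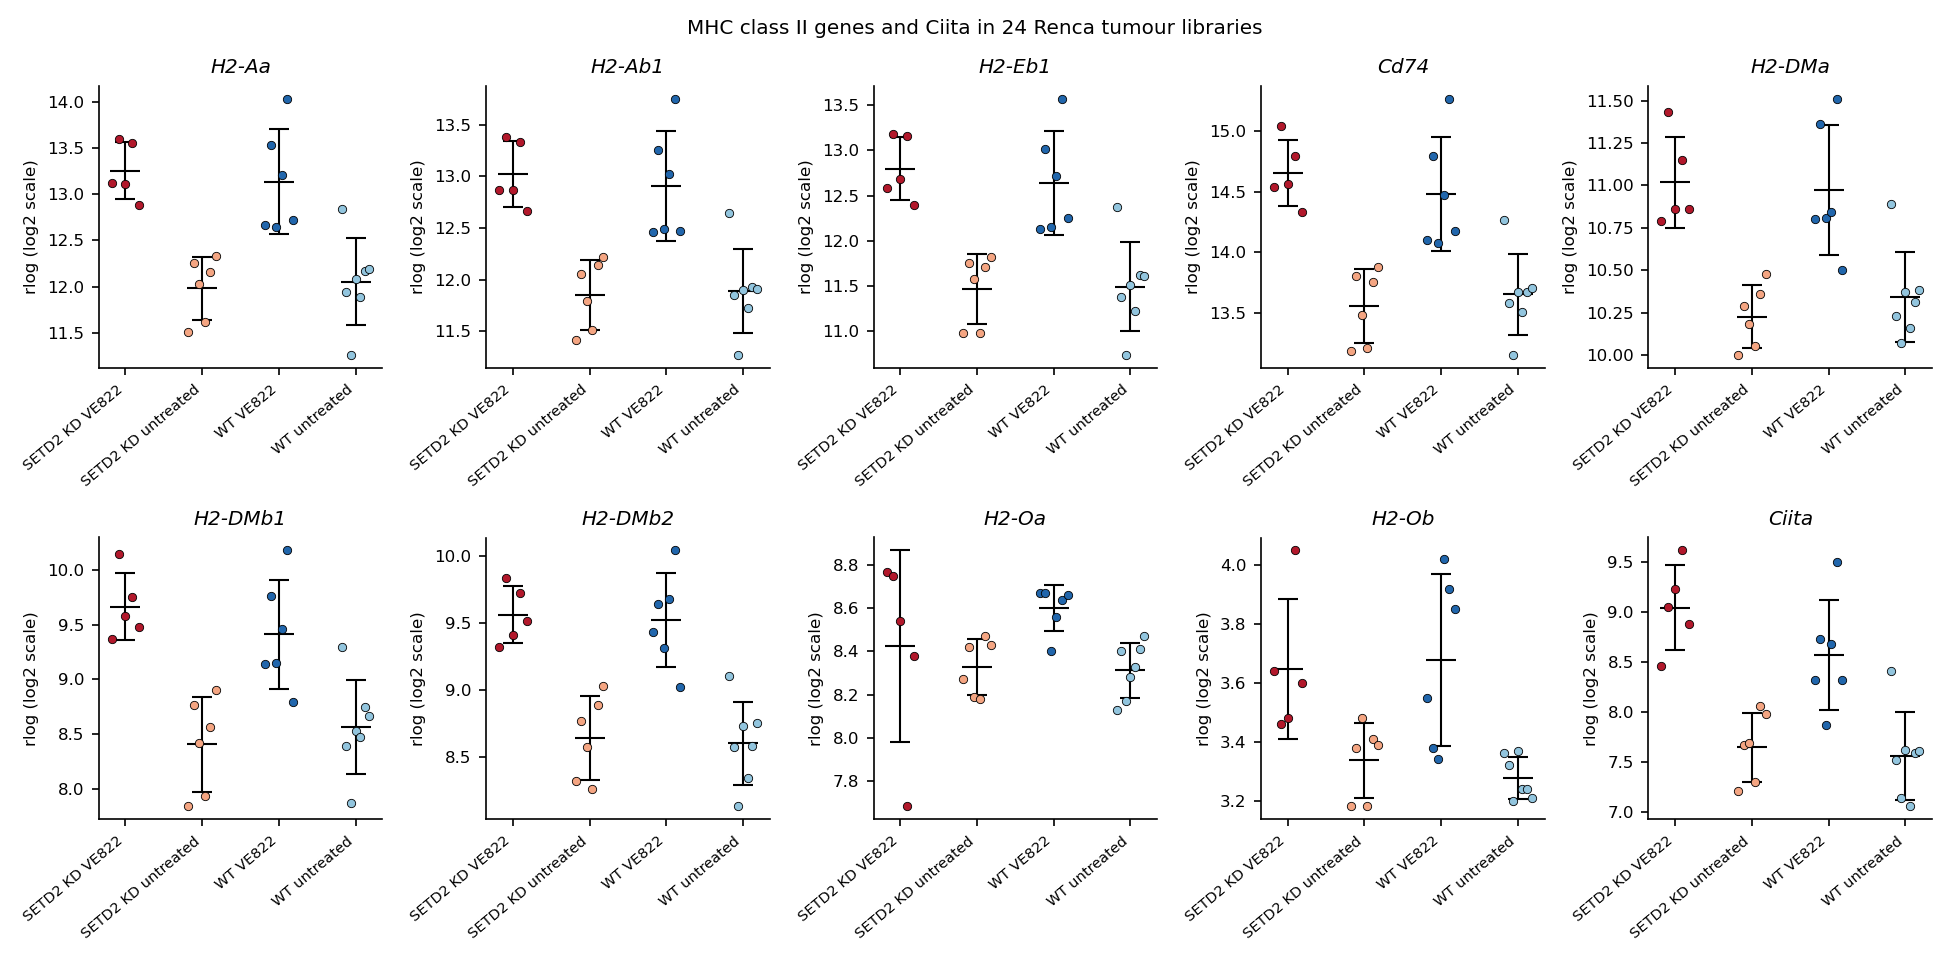
Each panel plots the rlog value (log2 scale, y axis) of 1 gene in the 24 libraries, by group on the x axis; points are libraries, and the bar with whiskers is the mean ± SD. For H2-Aa, SETD2 KD VE822 libraries lie at 12.88 to 13.60 against 11.51 to 12.33 in SETD2 KD untreated, without overlap. Under the WT label the H2-Aa groups overlap through WT untreated replicate 1, at 12.84 against a lowest of 12.64 in WT VE822. The interaction of label and VE822 passed for 0 of the 10 genes. The share of all genes without overlap was not computed. H2-Oa spans 7.68 to 8.77 in SETD2 KD VE822 against 8.18 to 8.47 in SETD2 KD untreated.

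Ciita (chromosome 16, 10480059 to 10528418, plus strand) encodes the coactivator on which the classical genes depend. Its rlog values in SETD2 KD VE822 replicates 1 to 5 were 8.46, 9.05, 9.23, 9.62 and 8.88, against a lowest, median and highest of 7.21, 7.68 and 8.06 in SETD2 KD untreated. All 5 treated libraries lay above all 6 untreated ones. The difference was 1.40 ± 0.25 (log2, SE), or 2.63-fold (limma adjusted p 0.00033), the highest of the 10 genes in that comparison. In tumours labelled WT, Ciita ran from 7.87 through a median of 8.50 to 9.50 rlog with VE822, against 7.06, 7.59 and 8.41 rlog untreated. Those groups overlapped, because WT untreated replicate 1 (8.41) stood above the WT VE822 minimum, while the other 6 untreated libraries were at 7.62 or lower. The difference was 1.00 ± 0.23 (log2, SE), or 2.01-fold (limma adjusted p 0.00177). An exon of Dexi lies on the opposite strand, and since strand use in the counting is not stated, reads of Ciita and Dexi may not be told apart there. The same holds for H2-DMa with Brd2 and for H2-Oa with BC051537, and Mir5107 lies within Cd74 on the same strand.

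H2-Aa and H2-Ab1 encode the alpha and beta chains of I-A, and both were more than 2 times as high with VE822 under either label. H2-Aa was at 13.12, 13.60, 13.11, 13.55 and 12.88 rlog in SETD2 KD VE822, against 11.51, 12.10 and 12.33 rlog (lowest, median, highest) in SETD2 KD untreated. The treated and untreated libraries did not overlap. H2-Aa rose by 1.27 ± 0.25 (log2, SE; limma adjusted p 0.000694). Under the WT label it ran from 12.64 through 12.97 to 14.03 rlog with VE822, against 11.26, 12.08 and 12.84 rlog untreated. Here WT untreated replicate 1 (12.84) reached into the treated range, and the next highest untreated library was at 12.19. The difference was 1.08 ± 0.23 (log2, SE; limma adjusted p 0.000735).

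H2-Ab1 followed H2-Aa closely. It averaged 13.02 ± 0.32 rlog in SETD2 KD VE822 (SD, n = 5) and 11.85 ± 0.34 in SETD2 KD untreated (SD, n = 6), a difference of 1.17 ± 0.23 (log2, SE; limma adjusted p 0.000733). It averaged 12.90 ± 0.53 rlog in WT VE822 (SD, n = 6) and 11.89 ± 0.40 in WT untreated (SD, n = 7), a difference of 1.02 ± 0.21 (log2, SE; limma adjusted p 0.000673). The gap between the 2 chains stayed narrow, with H2-Aa above H2-Ab1 by a mean of 0.23, 0.13, 0.23 and 0.16 rlog in SETD2 KD VE822, SETD2 KD untreated, WT VE822 and WT untreated.

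H2-Eb1 encodes the beta chain of I-E, whose alpha chain gene is annotated in the reference genome as the polymorphic pseudogene H2-Ea-ps, since some mouse strains, BALB/c among them, carry a working copy and others a broken one. H2-Eb1 was at 12.58, 13.18, 12.68, 13.16 and 12.40 rlog in SETD2 KD VE822, against 10.98, 11.65 and 11.82 rlog (lowest, median, highest) in SETD2 KD untreated. It was at 12.13, 12.48 and 13.57 rlog in WT VE822, against 10.74, 11.51 and 12.38 rlog in WT untreated. The SETD2 KD groups did not overlap, and the WT groups did, again through WT untreated replicate 1. H2-Eb1 rose by 1.33 ± 0.26 and 1.14 ± 0.24 (log2, SE; limma adjusted p 0.000777 and 0.000783) under the SETD2 KD and WT labels.

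The RNA of both I-E chains was present in every library. H2-Ea-ps averaged 11.96 ± 0.34 rlog in SETD2 KD VE822 (SD, n = 5) and 10.70 ± 0.37 in SETD2 KD untreated (SD, n = 6), and rose by 1.26 (log2; limma adjusted p 0.000731). Under the WT label it averaged 11.86 ± 0.52 rlog with VE822 (SD, n = 6) and 10.80 ± 0.48 untreated (SD, n = 7), a rise of 1.06 (log2; limma adjusted p 0.000927). H2-Eb2, a further beta chain gene, was below 0 rlog in all 24 libraries and was not among the genes tested.

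Cd74 (chromosome 18, 60803848 to 60812652, plus strand) encodes the invariant chain, which guards the groove of new class II molecules and guides them to endosomes. It had the highest level of the set, also per kilobase of exon. Its rlog values in SETD2 KD VE822 were 14.54, 15.04, 14.56, 14.79 and 14.33, against 13.19, 13.63 and 13.88 (lowest, median, highest) in SETD2 KD untreated. In tumours labelled WT it was at 14.08, 14.32 and 15.26 rlog with VE822, against 13.16, 13.68 and 14.27 rlog untreated. The SETD2 KD groups were apart and the WT groups overlapped. Cd74 rose by 1.10 ± 0.20 in the SETD2 KD pair and by 0.82 ± 0.18 in the WT pair (log2, SE; limma adjusted p 0.000346 and 0.00127).

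H2-DMa and the beta chain genes H2-DMb1 and H2-DMb2 encode H2-M, which removes the invariant chain remnant so that peptides can bind. H2-DMa had the smallest rise among the genes named so far. It averaged 11.02 ± 0.27 rlog in SETD2 KD VE822 (SD, n = 5) and 10.23 ± 0.18 in SETD2 KD untreated (SD, n = 6), a rise of 0.79 (log2; limma adjusted p 0.00104). It averaged 10.97 ± 0.39 rlog in WT VE822 (SD, n = 6) and 10.34 ± 0.26 in WT untreated (SD, n = 7), a rise of 0.63 (log2; limma adjusted p 0.00205).

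H2-DMb1 and H2-DMb2 lie side by side on chromosome 17 and are near copies. Of the 50-base stretches of their transcripts, 22.7% of those of H2-DMb1 and 24.8% of those of H2-DMb2 also occur in another gene. The gene sharing most was in each case the other of the pair, so the split of reads between them is uncertain. H2-DMb1 averaged 9.67 ± 0.30 rlog in SETD2 KD VE822 and 8.41 ± 0.43 in SETD2 KD untreated (SD, n = 5 and 6), a rise of 1.26 (log2; limma adjusted p 0.000581). H2-DMb2 averaged 9.56 ± 0.21 and 8.64 ± 0.31 rlog in the same groups, a rise of 0.92 (limma adjusted p 0.000487). Under the WT label the rises were 0.84 for H2-DMb1 (limma adjusted p 0.00469) and 0.92 for H2-DMb2 (0.000106). The H2-DMb1 call under the WT label was not kept when WT VE822 replicates 1, 2 and 4 and WT untreated replicate 4, which were high in skeletal muscle transcripts, were left out (0.80, limma adjusted p 0.0617).

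H2-Oa and H2-Ob encode the chains of H2-O, which restrains H2-M and is known mostly from B cells, thymic epithelium and some dendritic cells. H2-Oa was the one gene of the set called in neither treated comparison. It was at 8.77, 8.75, 8.54, 7.68 and 8.38 rlog in SETD2 KD VE822, against 8.18, 8.34 and 8.47 rlog (lowest, median, highest) in SETD2 KD untreated. Replicate 4 had the lowest value of all 24 libraries, and the groups overlapped. The difference was 0.10 ± 0.13 (log2, SE; 95% interval -0.17 to 0.37; limma adjusted p 0.644). Without that library it was 0.28 (limma adjusted p 0.0164), which is a call.

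In tumours labelled WT, H2-Oa was at 8.40, 8.65 and 8.67 rlog with VE822, against 8.13, 8.33 and 8.47 rlog untreated. Only WT VE822 replicate 3 fell within the untreated range. The difference was 0.29 ± 0.12 (log2, SE; limma adjusted p 0.0681), and it passed at 0.27 (0.0245) with library weights and at 0.29 (0.00612) with only these 2 groups in the fit. The upper end of its 95% interval, 0.53, lay below the lower ends of H2-Aa (0.62), H2-Ab1 (0.58), H2-Eb1 (0.65) and H2-DMb2 (0.59), and not below those of the other 5 genes.

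In SETD2 KD VE822 replicate 4 the low H2-Oa went with other departures, named after their values were seen. Cd79a, a B cell receptor component, was at 7.24 rlog in that library, beside a group median of 9.50, and Cdh1, an epithelial cadherin, was at 11.29 rlog, beside a median of 12.40. Ptprc, the pan-leukocyte gene for CD45, was at its group maximum of 11.25 rlog, and H2-Aa (13.55) and Ciita (9.62) were high. The part of these departures in the H2-Oa value was not tested.

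H2-Ob was close to the limit of detection. It averaged 3.64 ± 0.24 rlog in SETD2 KD VE822 (SD, n = 5) and 3.34 ± 0.13 in SETD2 KD untreated (SD, n = 6), a difference of 0.31 (log2; limma adjusted p 0.0531). It averaged 3.67 ± 0.29 rlog in WT VE822 (SD, n = 6) and 3.28 ± 0.07 in WT untreated (SD, n = 7), and rose by 0.40 (log2; limma adjusted p 0.0051). The rlog transform draws low genes together, so these differences understate the change in reads. The call under the SETD2 KD label is at the threshold, since it was made without SETD2 KD VE822 replicate 2 (0.35, adjusted p 0.0438) or 3 (0.35, 0.0444) and without SETD2 KD untreated replicate 3 (0.34, 0.0495).

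**Figure D2:**
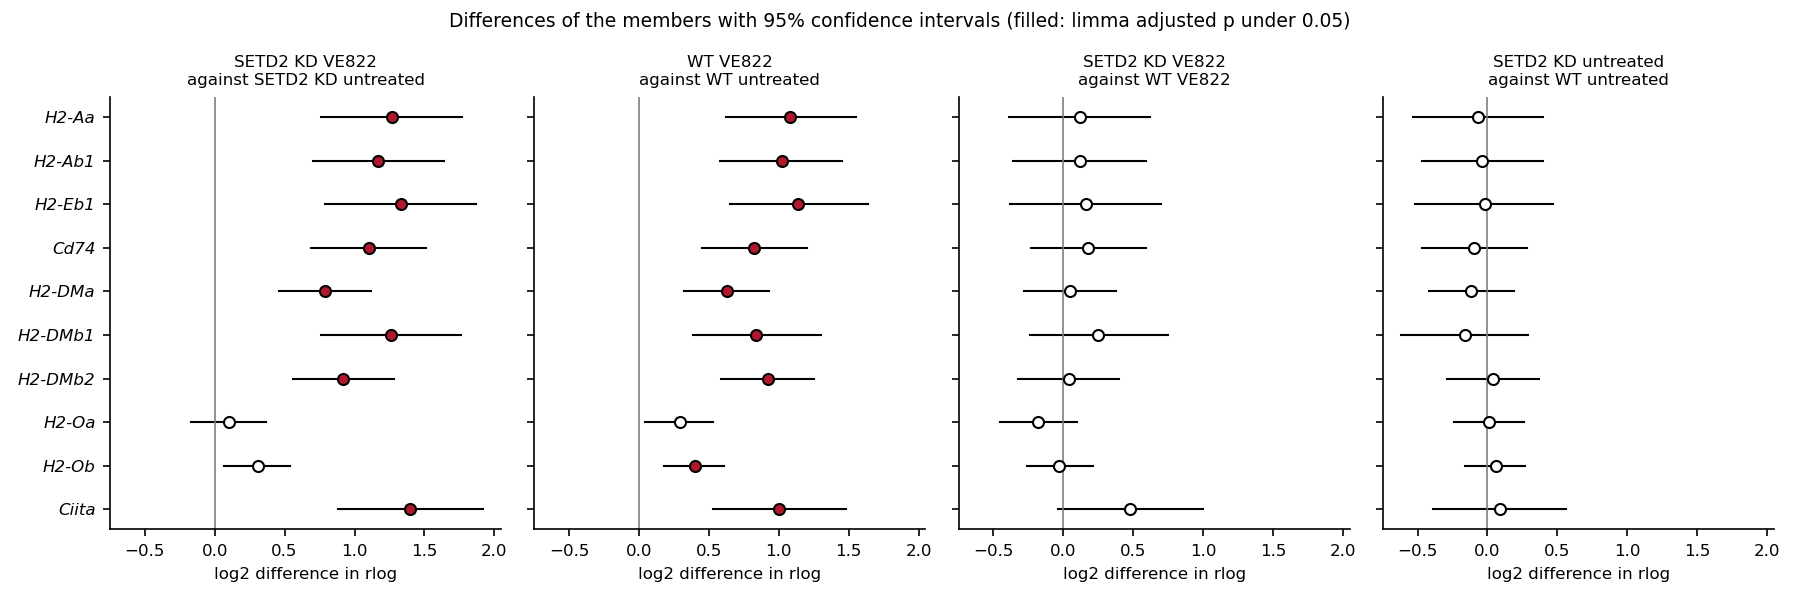
Points give the log2 difference in rlog (x axis) of the 10 genes (y axis) in 4 comparisons, with 95% confidence intervals as lines and filled points for limma adjusted p under 0.05. The first 2 panels, VE822 against untreated, hold 8 and 9 filled points, and the last 2, SETD2 KD against WT, hold none.

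Levels were ranked between genes after the log2 of the exon length in kilobases was taken off. That length is the union of all annotated exons, which can exceed the transcript in use, so the ranks are rough. In WT untreated tumours Cd74 came first at a mean of 12.91 on this log2 per-kilobase scale. H2-Eb1 (10.54), H2-Ab1 (10.53) and H2-Aa (10.13) came next. Before the length was taken off, H2-Aa lay above H2-Ab1 by 0.16 ± 0.10 rlog (SD, n = 7), so the order of these 2 rests on the exon lengths used. H2-DMa followed at 8.56. H2-DMb1 (7.82), H2-Oa (7.82) and H2-DMb2 (7.80) were not apart beyond their spread, and Ciita (4.31) and H2-Ob (0.85) came last. In SETD2 KD VE822 tumours H2-DMb1 (8.92) and H2-DMb2 (8.75) stood above H2-Oa (7.93).

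The genotype label made no difference that passed. None of the 10 genes was called in SETD2 KD untreated against WT untreated tumours, where 0% of all genes were called by limma and 512 of 15916 had an unadjusted p under 0.05. The differences ran from -0.16 to 0.09 (log2), with a median of -0.03. None of the 10 was called in SETD2 KD VE822 against WT VE822 tumours either, where 0.0126% of all genes were called and 2031 had an unadjusted p under 0.05. Ciita had the highest difference there, 0.48 ± 0.25 (log2, SE; 95% interval -0.04 to 1.00; limma adjusted p 0.424), with 9.05 ± 0.43 rlog in SETD2 KD VE822 (SD, n = 5) and 8.57 ± 0.55 in WT VE822 (SD, n = 6).

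Whether the response to VE822 differed between labels was tested as the interaction, and 0 of 10 genes passed, as did 0% of all genes, with 1452 at an unadjusted p under 0.05. The interaction estimate of Ciita was 0.39 (95% interval -0.31 to 1.10; limma adjusted p 0.733) and that of H2-DMb1 was 0.42 (-0.26 to 1.09; 0.701). That of H2-Aa was 0.18 (-0.51 to 0.87; 0.891). Intervals this wide leave differences of up to about 1 log2 unit undetected.

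With both labels averaged, 9 of 10 genes were called higher with VE822 and 0 lower, where 21.5% of all genes were called higher and 21.4% lower. H2-Eb1 rose by 1.23, Ciita by 1.20, H2-Aa by 1.17 and Cd74 by 0.96 (log2; limma adjusted p 6.01e-06, 5.37e-06, 5.31e-06 and 4.51e-06). H2-Oa differed by 0.19 (limma adjusted p 0.0844). SETD2 KD VE822 against WT untreated shares libraries with the comparisons above and gave 9 of 10 higher and 0 lower, where 12.1% of all genes were called higher and 12.4% lower. Ciita was higher by 1.48 and H2-Aa by 1.20 in that comparison (limma adjusted p 9.89e-05 and 0.000676).

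Within groups, 8 of the 10 genes went up and down together from library to library. After the group means were removed, the 28 pairs among Ciita, the 3 classical chains, Cd74 and the 3 H2-DM genes had a Pearson r of 0.789 to 0.994 over the 24 libraries, with a median of 0.921. Ciita had an r of 0.877 with the mean of the 3 classical chains and Cd74 one of 0.987, while H2-Ob had 0.408 and H2-Oa 0.031. The H2-Oa value includes SETD2 KD VE822 replicate 4, with the lowest H2-Oa, 7.68, beside a group median of 8.54. No r was computed without that library, so H2-Oa is not shown to be uncoupled from the set. All points share a library with its cell makeup and depth, so these values describe the libraries. Some libraries were at the top for many genes at once. WT VE822 replicate 5 and WT untreated replicate 1 were the highest of their groups in all 8 genes, and SETD2 KD VE822 replicate 2 and SETD2 KD untreated replicate 6 in 7 of 8.

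**Figure D3:**
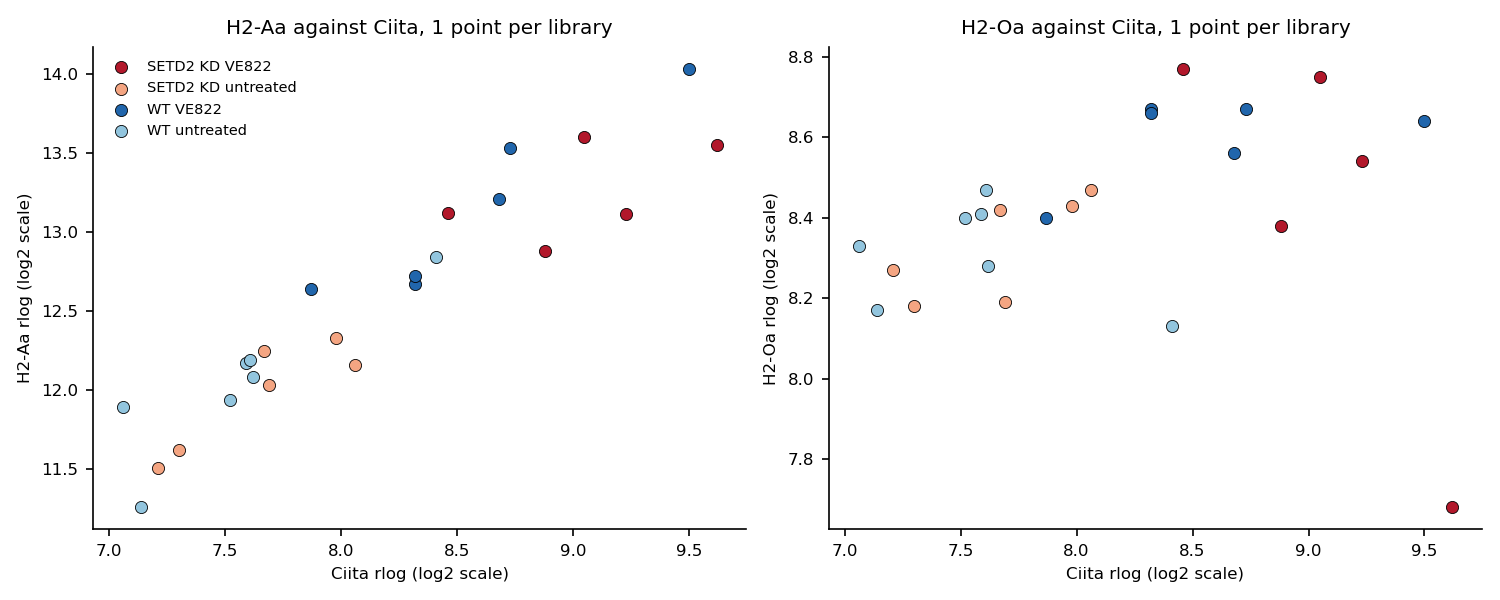
The rlog of H2-Aa (left, y axis) and H2-Oa (right, y axis) is plotted against the rlog of Ciita (x axes), 1 point per library, coloured by group. H2-Aa climbs with Ciita over the 24 libraries, with a Pearson r of 0.859 after group means were removed. It reaches 14.03 at a Ciita of 9.50 in WT VE822 replicate 5. No r was computed for single groups, and SETD2 KD VE822 replicate 3 has a Ciita of 9.23 with an H2-Aa of 13.11, beside a group median of 13.12. The library with the highest Ciita, 9.62, has the lowest H2-Oa, 7.68. It is SETD2 KD VE822 replicate 4, which had the lowest weight of the libraries, 0.144.

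Outside the set, H2-Ea-ps was most like the mean of the 3 classical chains, with an r of 0.989 over 24 libraries after group means were removed. Cd52, a surface glycoprotein of leukocytes, came next at 0.936, then Aif1, a gene of macrophages and microglia, at 0.870. The 99th percentile over all genes was 0.675. The genes most like Ciita were H2-Ea-ps (0.882), Tmem229b (0.879), Grap2, a T cell adaptor (0.876), Itgal, a leukocyte integrin chain (0.873), and Klrb1b (0.868).

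Genes of the proteins that bind the class II promoters moved little and in both directions. Of the 7 genes on that list (Rfx5, Rfxap, Rfxank, Nfya, Nfyb, Nfyc and Creb1), 1 rose and 2 fell in SETD2 KD VE822 against SETD2 KD untreated, and 1 rose and 3 fell in WT VE822 against WT untreated. Of all genes tested, 10.6% and 17.2% were called higher, and 11.6% and 17.5% lower, under the SETD2 KD and WT labels. Counts out of 7 genes are too few to set apart from these shares. The gene that rose was Nfyc, an NF-Y subunit, by 0.28 and 0.35 (log2; limma adjusted p 0.000777 and 1.59e-05). Rfx5, the DNA-binding subunit of the RFX complex, had -0.28 and -0.20 (0.0101 and 0.0286), and Nfyb had -0.22 and -0.44 (0.0398 and 5.18e-05). Rfxank had -0.10 and -0.35 (0.346 and 0.000245), and its call under the WT label was kept whichever of the 13 libraries was left out. The Nfyb call under the SETD2 KD label was lost on leaving out any of 8 of its 11 libraries (highest limma adjusted p 0.158), and the Rfx5 call under the WT label on leaving out any of 4 of 13 (highest 0.0817). The size of each of these changes was under that of any classical chain.

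Interferon gamma induces Ciita, in part through the transcription factor IRF1, and members of the list for this signal moved both ways. Of its 6 tested genes, 2 rose and 2 fell under the SETD2 KD label, where 10.6% of all genes were called higher and 11.6% lower. Under the WT label 2 rose and 2 fell, where 17.2% of all genes were called higher and 17.5% lower. The receptor chain gene Ifngr1 fell in both, with differences of -0.47 and -0.53, as did the kinase gene Jak1, with -0.32 and -0.35 (log2; limma adjusted p 0.000181, 8.86e-06, 5.07e-05 and 2.54e-06). Socs1, the feedback inhibitor, rose by 1.08 and 0.92 (0.00189 and 0.00199).

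Irf1 averaged 10.99 ± 0.26 rlog in SETD2 KD VE822 (SD, n = 5) and 10.37 ± 0.10 in SETD2 KD untreated (SD, n = 6), a rise of 0.63 (log2; limma adjusted p 0.000734). It averaged 10.62 ± 0.27 rlog in WT VE822 (SD, n = 6) and 10.48 ± 0.22 in WT untreated (SD, n = 7), a difference of 0.14 (log2; limma adjusted p 0.352). The interaction did not pass for Irf1 (0.49, limma adjusted p 0.471), so the labels are not shown to differ. WT untreated replicate 1, the untreated library with high class II genes, also had the highest Irf1 of its group (10.92 rlog). Ifng itself was below the minimum mean, at 2.55 ± 0.32 rlog in SETD2 KD VE822 (SD, n = 5) and 2.06 ± 0.04 in SETD2 KD untreated (SD, n = 6), and at 2.34 ± 0.22 in WT VE822 (SD, n = 6) and 2.06 ± 0.05 in WT untreated (SD, n = 7). In a fit with no minimum its differences were 0.49 and 0.28 (limma adjusted p 0.00405 and 0.053).

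Of 6 genes of lysosomal processing, 1 rose and 0 fell in each treated comparison. Under the SETD2 KD and WT labels 10.6% and 17.2% of all genes were called higher, so this count is near that share. The gene that rose was Ifi30, a thiol reductase of antigen processing, by 0.38 and 0.25 (log2; limma adjusted p 0.0100 and 0.0498) under the SETD2 KD and WT labels. The WT call of Ifi30 was lost on leaving out any of 9 of the 13 libraries (highest limma adjusted p 0.139). Ctss, the cathepsin that trims the invariant chain, differed by 0.24 and 0.21 (0.0895 and 0.0911), and was called under the WT label without WT VE822 replicate 6 (0.31, 0.00163). March1, a ubiquitin ligase that removes class II from the surface, differed by 0.40 under the SETD2 KD label (0.0272) and by 0.19 under the WT label (0.214). The first call rested on SETD2 KD VE822 replicate 4, without which it was 0.25 (0.0813), and was also lost on leaving out either of 2 other libraries. March8 passed in neither comparison, with -0.14 and 0.05 (0.0599 and 0.400), and was called under the SETD2 KD label on leaving out either of 2 of the 11 libraries. Of the T cell receptors for class II, the inhibitory Lag3 rose by 1.08 and 0.56 (limma adjusted p 0.000239 and 0.0155), the second value being 0.42 (0.0507) without WT VE822 replicate 5. Cd4 differed by 0.88 under the SETD2 KD label (0.0303) and by 0.29 under the WT label (0.423). Without SETD2 KD VE822 replicate 4 the first was 0.55 (0.0954) and no call, and leaving out any of 3 other libraries also ended it.

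**Figure D4:**
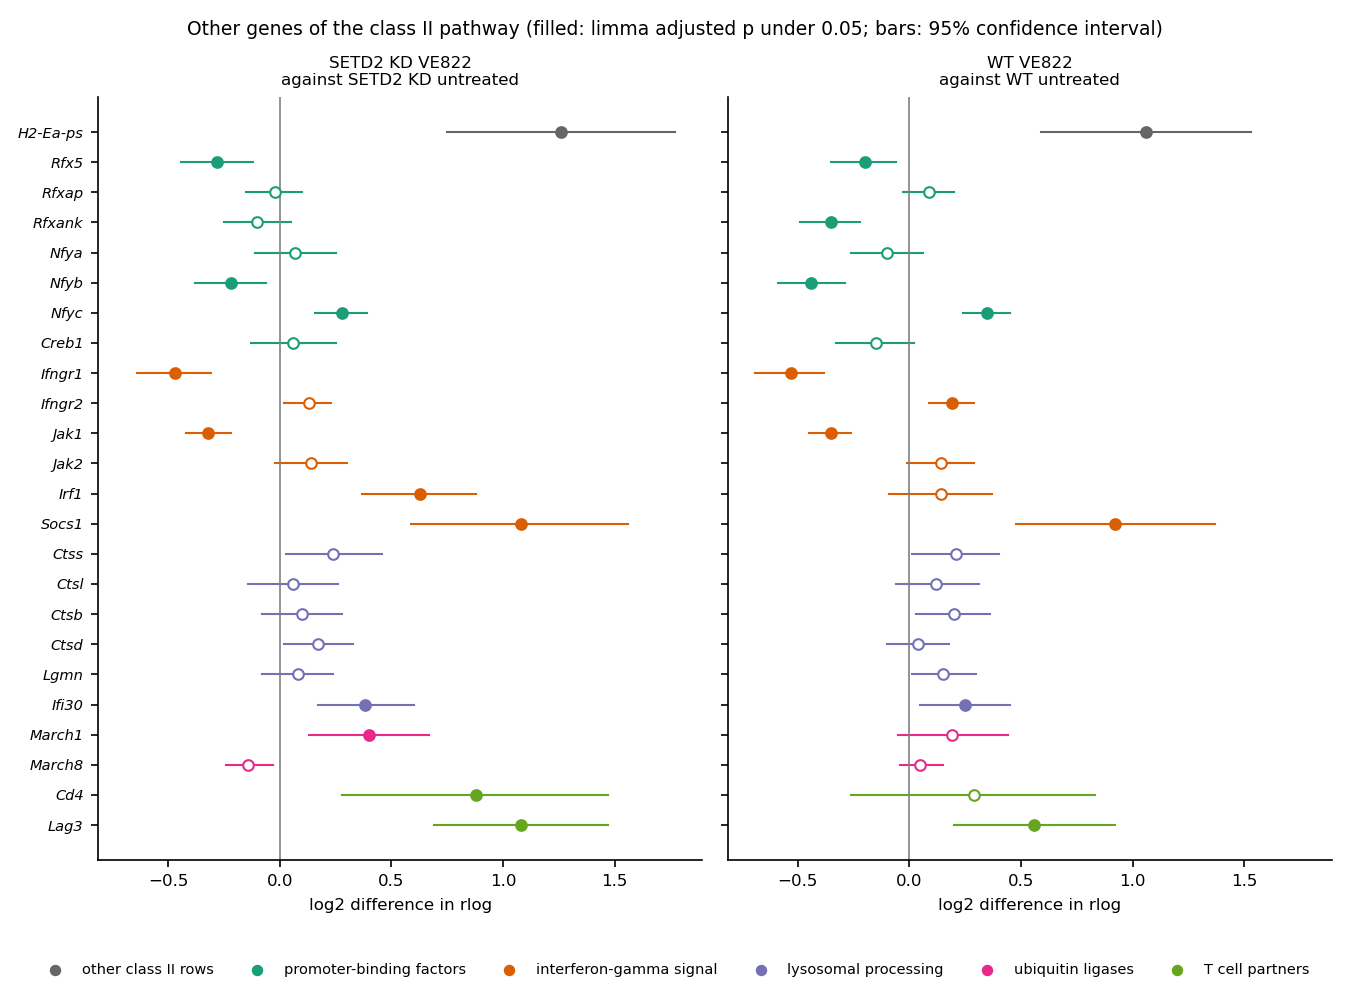
The log2 difference in rlog (x axis) of the other tested genes of the class II pathway (y axis, coloured by list) is shown with 95% confidence intervals for VE822 against untreated under the SETD2 KD label (left) and the WT label (right); filled points have a limma adjusted p under 0.05. H2-Ea-ps lies at 1.26 and 1.06, and the promoter-binding factors lie between -0.28 and 0.28 on the left and between -0.44 and 0.35 on the right.

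Transcripts of several immune cell types moved with the class II genes. Under the SETD2 KD and WT labels, 10.6% and 17.2% of all genes were called higher and 11.6% and 17.5% lower. On the leukocyte list (Ptprc, Cd53, Laptm5, Coro1a, Cd52 and Itgb2), 4 of 6 genes rose and 0 fell under the SETD2 KD label, and 5 rose and 0 fell under the WT label. With 1 library left out at a time, 4 to 5 and 4 to 6 rose. Ptprc differed by 0.62 and 0.35 (log2; limma adjusted p 0.00839 and 0.0761), the second being no call. The Laptm5 call under the WT label (0.27, 0.0396) was lost on leaving out any of 8 of the 13 libraries (highest 0.12). The summed level of the list, the log2 of the sum of its genes, ran from 13.88 to 14.30 in SETD2 KD VE822 against 13.51 to 13.80 in SETD2 KD untreated. The range was 13.70 to 14.31 in WT VE822 against 13.55 to 13.93 in WT untreated, with WT untreated replicate 1 at the top of its group.

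The dendritic cell list held Flt3, Zbtb46, Itgax, Xcr1, Clec9a, Batf3, Cd209a, Clec10a, Ccr7 and Siglech. Of these 10 genes, 6 rose and 0 fell under each label, where 10.6% (SETD2 KD) and 17.2% (WT) of all genes were called higher. The summed level was 10.85 to 11.34 in SETD2 KD VE822 against 10.31 to 10.75 in SETD2 KD untreated, and 10.66 to 11.47 in WT VE822 against 10.07 to 10.71 in WT untreated. Ccr7, the homing receptor of migrating dendritic cells, rose by 0.66 and 1.17, and Itgax, which encodes CD11c, by 0.79 and 0.95 (log2; limma adjusted p 0.00828, 8.1e-06, 0.0043 and 0.00023). Xcr1, a receptor of cross-presenting dendritic cells, rose by 0.83 and 0.48 (0.00328 and 0.0383), and the second call was lost on leaving out any of 9 of the 13 libraries (0.35, limma adjusted p 0.119 without WT VE822 replicate 5). Zbtb46 (0.24 and 0.39), Cd209a (0.36 and 0.47) and Clec10a (0.06 and -0.13) passed under neither label. Batf3 passed only under the SETD2 KD label, and Siglech only under the WT label. With 1 library left out at a time, the number of the 10 genes that passed was 4 to 6 under the SETD2 KD label and 2 to 7 under the WT label. It was 2 without WT VE822 replicate 4 or 5 or WT untreated replicate 3.

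All 7 genes of the T cell list rose under both labels, where 10.6% (SETD2 KD) and 17.2% (WT) of all genes were called higher. The summed level was 8.99 to 9.69 in SETD2 KD VE822 against 8.42 to 8.66 in SETD2 KD untreated. The range was 8.85 to 9.66 in WT VE822 against 8.35 to 8.69 in WT untreated. Lck weighs most in this sum, at 7.83 rlog in SETD2 KD untreated, where the next gene of the list, Cd2, was at 5.28. Cd3e, a chain of the T cell receptor complex, rose by 1.38 and 1.07 (log2; limma adjusted p 0.00056 and 0.00141).

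Macrophages and B cells, which also carry class II, gave other counts. On the macrophage list, 1 of 9 genes rose and 2 fell in each treated comparison, where 10.6% and 11.6% of all genes were called higher and lower under the SETD2 KD label and 17.2% and 17.5% under the WT label. The genes that fell were Cd68, with differences of -0.28 and -0.20, and Mrc1, with -0.39 and -0.36 (log2; limma adjusted p 0.0131, 0.0386, 0.0174 and 0.0118). The gene that rose was another under each label. It was Fcgr1, a high-affinity receptor for IgG, under the SETD2 KD label, at 10.01 ± 0.21 rlog in SETD2 KD VE822 (SD, n = 5) and 9.59 ± 0.16 in SETD2 KD untreated (SD, n = 6), a difference of 0.41 (limma adjusted p 0.0353). It was Mertk, a receptor for the uptake of dying cells, under the WT label, at 8.58 ± 0.30 rlog in WT VE822 (SD, n = 6) and 8.23 ± 0.09 in WT untreated (SD, n = 7), a difference of 0.35 (limma adjusted p 0.0118). The calls of Fcgr1 and Mrc1 under the SETD2 KD label were lost on leaving out any of 6 of the 11 libraries and 1 of the 11 (highest limma adjusted p 0.0893 and 0.0517). That of Cd68 under the WT label was lost for 8 of the 13 (0.0821).

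Of 7 B cell genes, 4 were tested, and Ms4a1 and Fcer2a were below 0 rlog in every library. The gene that passed under the SETD2 KD label was Cd79a, with a difference of -0.82 (log2; limma adjusted p 0.0364). It was carried in large part by SETD2 KD VE822 replicate 4 (7.24 rlog), without which it was -0.34 (0.00669), and the call was lost on leaving out any of 5 other libraries (highest 0.0638). Under the WT label Cd79b and Cd22 passed, both higher, and with 1 library left out at a time 0 to 2 B cell genes passed there. Cd79a and Pax5 were the highest of the list, at 9.15 and 9.74 rlog in SETD2 KD VE822 and 9.97 and 9.55 in SETD2 KD untreated, while Ms4a1, Fcer2a and Blk were under 1 rlog in each group mean. A summed B cell level is therefore mostly Cd79a and Pax5 and is not read here.

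For the epithelial and skeletal muscle lists, the shares of all genes were again 10.6% higher and 11.6% lower under the SETD2 KD label. Under the WT label they were 17.2% and 17.5%. Of 6 epithelial genes, 2 rose and 3 fell under the SETD2 KD label and 2 rose and 4 fell under the WT label. With 1 library left out at a time, 1 to 2 rose and 3 to 4 fell under the SETD2 KD label and 1 to 2 rose and 2 to 3 fell under the WT label. The keratin genes Krt8 and Krt18 fell, with differences of -0.61 and -0.91 under the SETD2 KD label and -0.58 and -0.84 under the WT label, whereas Epcam rose by 1.00 and 1.31 (log2). All 6 were above 0 rlog in each group, and the summed epithelial level was 15.51 to 15.78 in SETD2 KD VE822 against 16.14 to 16.39 in SETD2 KD untreated. It was 15.41 to 15.71 in WT VE822 against 16.16 to 16.34 in WT untreated, with no overlap under either label. In SETD2 KD untreated Krt8 and Krt18 were at 15.50 and 14.51 rlog, beside 6.16 for Epcam and 4.83 for Krt7. The summed epithelial level is therefore mostly Krt8 and Krt18 and does not stand for the whole list. Of 8 skeletal muscle genes 0 passed under the SETD2 KD label and 2 rose under the WT label (1 to 7 with 1 library left out at a time), where the summed level was 9.76 to 12.68 with VE822 against 8.25 to 10.32 untreated. The part of the dendritic, T cell and epithelial shifts in the class II values was not tested.

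**Figure D5:**
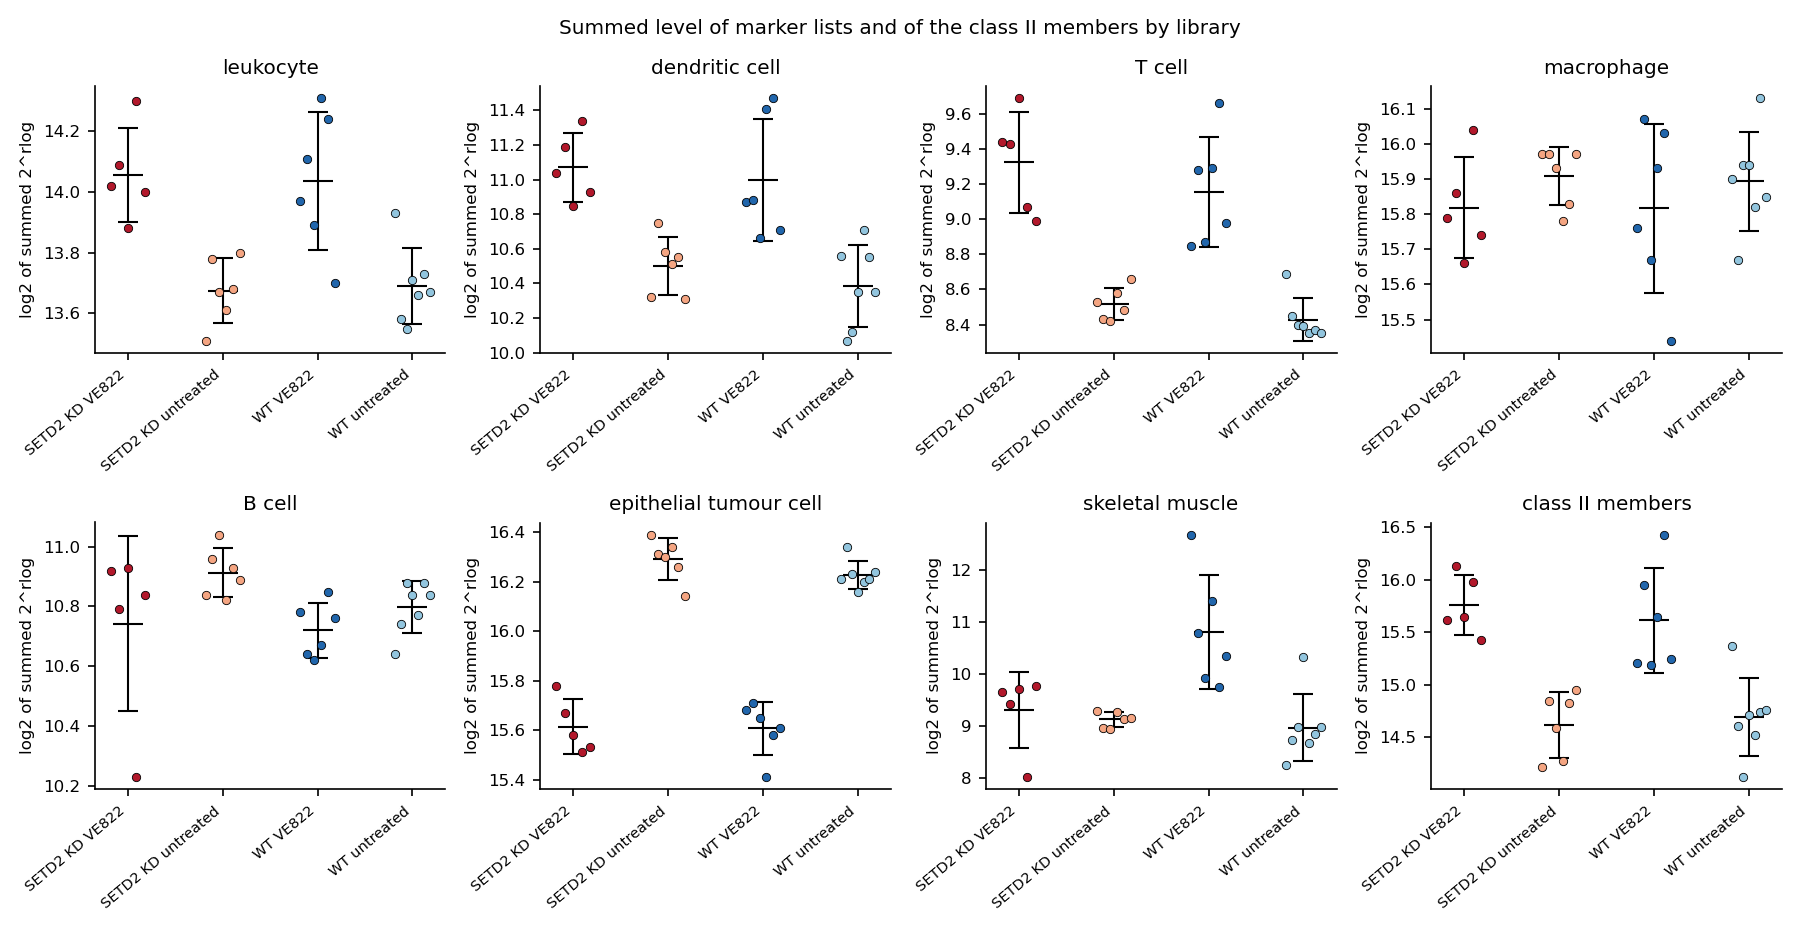
Each panel plots the summed level of 1 marker list, or of the 10 class II genes, as the log2 of the sum of 2 to the power of rlog (y axis) in 24 libraries by group (x axis); points are libraries, and the bar with whiskers is the mean ± SD. The class II sum was 15.43 to 16.13 in SETD2 KD VE822 against 14.22 to 14.95 in SETD2 KD untreated. Leukocyte, dendritic and T cell sums were also higher in SETD2 KD VE822, while the epithelial sum, mostly Krt8 and Krt18, was lower.

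When the leukocyte list mean entered the model as a covariate, most class II calls were not made. No gene of the 10 passed in SETD2 KD VE822 against SETD2 KD untreated, and 1 of 10, H2-Oa, passed in WT VE822 against WT untreated (0.44, limma adjusted p 0.0496). H2-Aa was then at 0.23 and 0.20 and Ciita at 0.46 and 0.21 (log2; limma adjusted p 0.520, 0.442, 0.256 and 0.520) under the SETD2 KD and WT labels. The covariate is not independent of the comparison, since 4 and 5 of its 6 genes themselves rose with VE822. One of them, Cd52, rose by 0.80 and 0.73 (log2; limma adjusted p 0.000666 and 0.000375) and had the r of 0.936 with the classical chains given above. With Cd52 taken out of the list mean, a choice made after seeing the data, 0 of 10 genes passed under the SETD2 KD label, and 2, H2-DMb2 (0.39, 0.0328) and H2-Oa (0.47, 0.0212), under the WT label. H2-Aa was then at 0.40 and 0.37 and Ciita at 0.57 and 0.33 (limma adjusted p 0.277, 0.186, 0.145 and 0.296). These fits do not show whether the class II genes differed at an equal number of leukocytes. With the skeletal muscle mean as covariate, 8 and 9 of 10 genes passed under the SETD2 KD and WT labels, and without SETD2 KD VE822 replicate 4 and WT untreated replicate 1 there were 9 and 10.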

How the data were processed

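RNA sequencing libraries of 24 Renca tumours were grouped by their genotype and treatment labels. The authors deposited 1 table of regularised log2 values (rlog) made over these libraries, per the file headers. FastQC, TopHat, HTSeq, DESeq2 and the build GRCm38 are named, without versions, in the submitters' processing notes. The sources used here do not give strand use or the treatment of shared reads. The human cell line table of the series was not used.

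Of 46078 rows, 98.16% matched GENCODE vM21 (GRCm38), and 16906 were 0 throughout. No 2 libraries held identical values. The 15916 genes whose mean rlog was 3 or more were fitted with limma 3.58.1 in R 4.3.3 as 4 group means over 24 libraries, with a mean-variance trend and Benjamini-Hochberg adjustment over all genes of a comparison. The limma code was tested on simulated data. A value is said to rise or fall only where its adjusted p was under 0.05. Depth is unknown for rlog values, so no counting interval is given.

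All 10 genes of the set are named, along with genes of listed pathway and cell type lists and, for each pattern, the genes with the highest correlation. The set and the lists were chosen with earlier results of these data known. Alternatives covered the minimum mean, the trend, library weights, 2 normalisations, the libraries in the fit, 2 covariates and left-out libraries. Some genes of these lists are not reported here.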

Additional observations from a re-analysis of the deposited data

Results flagged for a closer look

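Values of 1 library lay far from the others of its group for 2 genes, both in WT untreated replicate 1. Ciita was at 8.41 rlog there, with the next library at 7.62, so that the gap took 0.588 of the range of the group, above the critical value of 0.568 for 7 libraries. H2-DMa was at 10.89 rlog, with the next library at 10.38 and a gap of 0.623 of the range. Of 40 groups of values tested, these were the 2 that passed, and chance alone gives about 1 in 20 groups. Without that library the rise of Ciita in WT VE822 against WT untreated was 1.14 (log2; limma adjusted p 0.000397).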

How the results depend on the processing

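With the leukocyte list mean as a covariate, the number of the 10 genes called was 0 for SETD2 KD VE822 against SETD2 KD untreated, 1 for WT VE822 against WT untreated, 0 for VE822 against untreated over both labels and 1 for SETD2 KD VE822 against WT untreated, where it was Ciita (0.68, limma adjusted p 0.0439). In the same fit the H2-DMb1 difference in WT VE822 against WT untreated was -0.01 (0.97). With Cd52 left out of that mean, the 4 counts were 0, 2, 2 and 1. The cause was not tested. Under the other settings run, these 4 counts lay within 1.5 times the values reported. Leaving out 1 library at a time gave 8 to 9, 9 to 9, 9 to 10 and 9 to 9 genes in these 4 comparisons, and 0 to 0 in both comparisons of the labels and in the interaction. H2-Ob in SETD2 KD VE822 against WT untreated, called at 0.37 (0.0166), was not called without SETD2 KD VE822 replicate 4 (0.27, 0.0538). H2-Ob was not among the genes tested at a minimum mean of 5. Of the differences of single genes over all settings, 1874 stayed on their side of the threshold, 68 lost the call, 20 gained it and 1 lost it with a change of sign. Changes of sign were not counted for differences called in neither fit, and they occurred there. H2-Aa in SETD2 KD untreated against WT untreated, for example, was at -0.07 and ran from -0.20 to 0.09 over the settings. Leaving out WT untreated replicate 1 with SETD2 KD VE822 replicate 4, alone or with the 4 libraries high in muscle transcripts, was chosen after seeing the data, as was leaving out Cd52. No paired analysis was possible because the labels of the mouse libraries give no replicate number shared between groups.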
